A study of Mus musculus with 6 samples.

Results

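The AP-1 transcription factor subunits and a small set of immediate early genes were examined in cultured calvarial preosteoblasts, the precursors of bone-forming osteoblasts, from 3-day-old mice. The 10 genes were taken by symbol from the deposited expression table: the FOS family members Fos, Fosb, Fosl1 and Fosl2, the JUN family members Jun, Junb and Jund, and Egr1, Ier2 and Ier3. All 10 were among the 17001 rows of the table, and all 10 passed the filter on low values. The study compared 3 libraries of control cells (NELL2 fx/fx, both alleles floxed and no Cre) with 3 libraries of cells labelled cKO (Col1-cre; NELL2 fx/fx), so every culture carried the floxed alleles, and the labels name no treatment. In the cKO mice, Cre was driven by a fragment of the mouse Col1a1 promoter, which is active in cells of the osteoblast lineage. Cells released from the calvaria by trypsin and collagenase were grown in α-MEM with serum and were not sorted, and the labels do not say whether a library stands for 1 pup or a pool of pups.

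AP-1 is a dimer of leucine zipper proteins in which a JUN protein pairs with a FOS protein or with another JUN protein and binds DNA at short palindromic sites. Immediate early genes are transcribed within minutes of a stimulus such as serum, adhesion or stress, without new protein synthesis, and their RNAs are short-lived. In bone, FOS family proteins are known regulators of the osteoblast and osteoclast lineages, and Fosl1 and Fosl2 encode the proteins FRA1 and FRA2, which act on bone matrix production.

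Bases next to the transcription start are shown for the 4 genes that carried a match to a searched motif there. RefSeq promoter sequence on GRCm38.p6 was held for 7 of the 10 genes (Fos, Fosb, Fosl2, Jun, Junb, Jund and Ier3). The start used is that of this sequence, and matches depend on it. In the GENCODE M21 annotation Jund starts farther downstream, at base 70698949, and Fosl2 farther upstream, at base 32135801. Ier3 also starts farther upstream there, at base 35821684, so the last bases shown for it lie inside the GENCODE gene. On the minus strand, Junb starts farther downstream, at base 84978718, and Fosb slightly farther upstream, at base 19310051. The 100 bases that end just before the start are given 5′ to 3′ on the strand of the gene, with capitals for matches to TGACG (the half-site of the cyclic AMP response element, which ATF and AP-1 proteins can bind), to the EGR site (GCGGGGGCG, or the same letters with T in the fourth place) or to TATAA.
Fos, chr12:85473790-85473889, plus strand: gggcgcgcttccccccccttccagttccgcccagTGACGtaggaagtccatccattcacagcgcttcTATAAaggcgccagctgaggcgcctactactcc
Fosb, chr7:19310046-19310145, minus strand: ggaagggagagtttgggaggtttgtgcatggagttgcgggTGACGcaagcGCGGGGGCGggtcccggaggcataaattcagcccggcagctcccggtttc
Fosl2, chr5:32136372-32136471, plus strand: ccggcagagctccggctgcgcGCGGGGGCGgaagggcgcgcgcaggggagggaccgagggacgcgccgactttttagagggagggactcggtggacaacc
Ier3, chr17:35821613-35821712, plus strand: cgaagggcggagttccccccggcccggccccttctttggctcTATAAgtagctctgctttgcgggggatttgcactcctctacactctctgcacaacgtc

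Over the 250 bases before the start, searched on both strands, TGACG was found in Fos, Fosb and Junb, and in 17.9% of the 32536 distinct promoters of the table. In Fos it began 66 and 129 bases before the start, in Fosb 60 and in Junb 106. TATAA was found in Fos, 33 bases before the start, and in Ier3, against 22.7% of all promoters. The EGR site was found in Fosb and Fosl2, against 3.09% of all promoters. The full cyclic AMP response element (TGACGTCA), the TPA response element (TGACTCA, or its reverse complement) and the CArG box of the serum response element were found in none of the 7, against 1.56%, 4.45% and 1.48% of all promoters. TGACG is part of the full element, and TGACG and TATAA were added to the search after the sequences had been seen. These matches describe letters in a short window. Variant spellings, such as TGACATCA in Jun, and elements farther upstream were not searched.

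Levels are given as FPKM (sequenced fragments divided by transcript length in kilobases and by library size), a unit per length that allows genes to be set side by side. Junb had the highest level, with a mean of 61.5 FPKM over the 6 libraries, above 92.2% of the rows of the table. It was followed by Jun at 40.9, Egr1 at 34.6, Fosl2 at 34.5, Jund at 32.6, Ier3 at 27.8 and Ier2 at 22.0 FPKM. Fosl1 (10.3 FPKM), Fos (7.20 FPKM) and Fosb (1.54 FPKM) were the lowest, and Fosb lay above only 35.7% of the rows. Junb exceeded Jun, Jund exceeded Ier3, Ier2 exceeded Fosl1 and Fos exceeded Fosb in 6 of 6 libraries. The order of the other neighbours was not kept in every library: Jun was above Egr1 in 4 of 6, Egr1 above Fosl2 in 3 of 6, Fosl2 above Jund in 5 of 6, Ier3 above Ier2 in 4 of 6 and Fosl1 above Fos in 5 of 6.

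The FOS family was made up mostly of Fosl2 RNA. Its share of the summed FOS family FPKM was 66.0% ± 0.863 among controls and 62.8% ± 3.66 among the libraries labelled cKO (SD, n = 3 each). Fosl1 held 17.4% ± 2.42 in controls and 21.0% ± 1.66 in libraries labelled cKO, a difference of 3.62 percentage points that ran from 2.25 to 4.54 when each library was left out. Fos held 14.1% ± 2.80 and 12.9% ± 1.59, and Fosb held 2.54% ± 0.567 and 3.22% ± 0.521. Fosl1 was the member of the family whose share was higher in every library labelled cKO than in every control library. Within the JUN family, Junb held 45.1% ± 0.737 in controls and 46.0% ± 2.53 in libraries labelled cKO, with Jun at 31.1% ± 1.40 and 29.5% ± 1.79 and Jund at 23.9% ± 1.52 and 24.5% ± 2.60. The JUN family sum was 2.5 ± 0.0337 times the FOS family sum in controls and 2.54 ± 0.173 times in libraries labelled cKO. These shares were not tested, since they are sums over chosen genes.

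**Figure D1:**
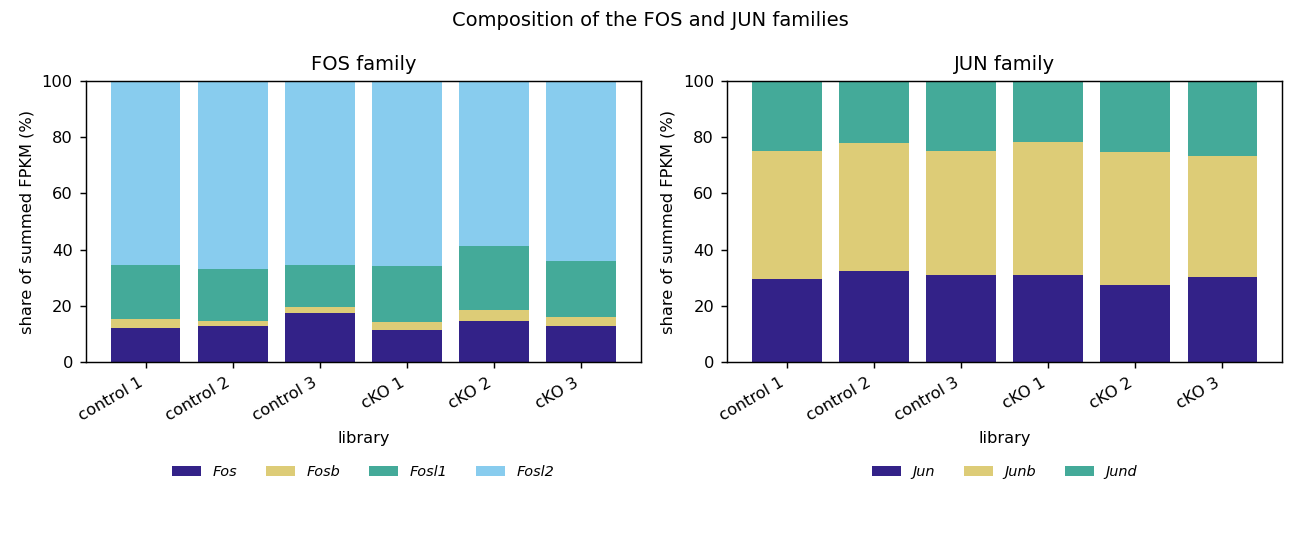
Share of each gene in the summed FPKM of its family (y axis, percent) in each of the 6 libraries (x axis), with the FOS family on the left and the JUN family on the right. Fosl2 is the largest part of the FOS family in every library (58.7% to 67.0%), and the 3 parts of the JUN family keep the same order in every library, with Junb first (43.0% to 47.5%).

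The comparison of cKO with control asked how loss of NELL2 alters the transcriptome of preosteoblasts. The targeted gene was checked first: Nell2 was 3.17, 2.59 and 1.88 FPKM in control replicates 1, 2 and 3 and 5.64, 1.61 and 5.74 FPKM in the libraries labelled cKO replicates 1, 2 and 3. The label cKO was thus not matched by a lower Nell2 level (mean 2.55 ± 0.646 against 4.33 ± 2.36 FPKM, SD, n = 3; adjusted p = 0.591 from limma), and all directions below follow the labels. One value for the whole gene cannot show whether the floxed exons were lost, so the deletion itself could not be checked here. Values were compared as log2(FPKM + 1) with limma's moderated test (two-sided, Benjamini-Hochberg adjustment) over the 11590 rows with at least 1 FPKM in at least 3 libraries. This scale understates fold changes of low genes such as Fosb. FPKM does not keep the number of reads, so the depth of the libraries is unknown. The FPKM sum of a library was between 573307 and 606428. Col1a1 and Col1a2, the collagen genes of the osteoblast lineage, were among the highest rows (7484 to 8578 FPKM), and Runx2 and Sp7, its defining transcription factors, were at 10.3 to 17.6 FPKM. Among lists of marker genes, 7 of 8 osteoblast lineage markers had negative differences (median -0.46), where 44.3% of all tested genes had positive ones. Of these markers, Ifitm5 reached 1 FPKM only in controls, so passing the filter already set its groups apart. The median was -0.45 over the 7 markers with at least 1 FPKM in every library. The medians of tested cartilage and adipocyte markers were 0.45 and 0.41, against -0.02 over all tested genes. No marker of these lists passed the test (lowest adjusted p = 0.312 from limma). Markers of other cell types were detected: the summed level of 8 macrophage markers was 33.8 to 91.2 FPKM, led by Lyz2 at 26.6 to 75.0 FPKM, and that of 6 muscle markers was 29.8 to 55.8 FPKM, led by Acta1 at 21.7 to 37.3 FPKM, while 6 endothelial markers summed to 1.94 to 4.06 FPKM. Y-linked RNA also differed between the libraries, with a mean over 4 genes of 12.4 to 13.7 FPKM in control replicate 3, cKO replicate 1 and cKO replicate 3 and at most 0.0725 FPKM in the other libraries.

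No gene of the 10 passed the test: 0 of 10 had an adjusted p under 0.05, where 0% of the 11590 tested genes did. At an unadjusted p under 0.05 there were 2 of 10 (Fosb and Fosl1), against 13.1% of all tested genes. That count was 0 without cKO replicate 2 or cKO replicate 3, 1 without control replicate 2 or control replicate 3, and 4 without cKO replicate 1. The values of the groups were apart for 1 of 10 (Fosl1, higher in the libraries labelled cKO). Over all tested genes the groups were apart for 18.3%, and for 6.51% with the higher values in cKO. The fitted difference was positive for 9 of the 10 genes, with a median of 0.11 on the log2(FPKM + 1) scale, against a median of -0.02 and 44.3% positive over all tested genes.

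**Figure D2:**
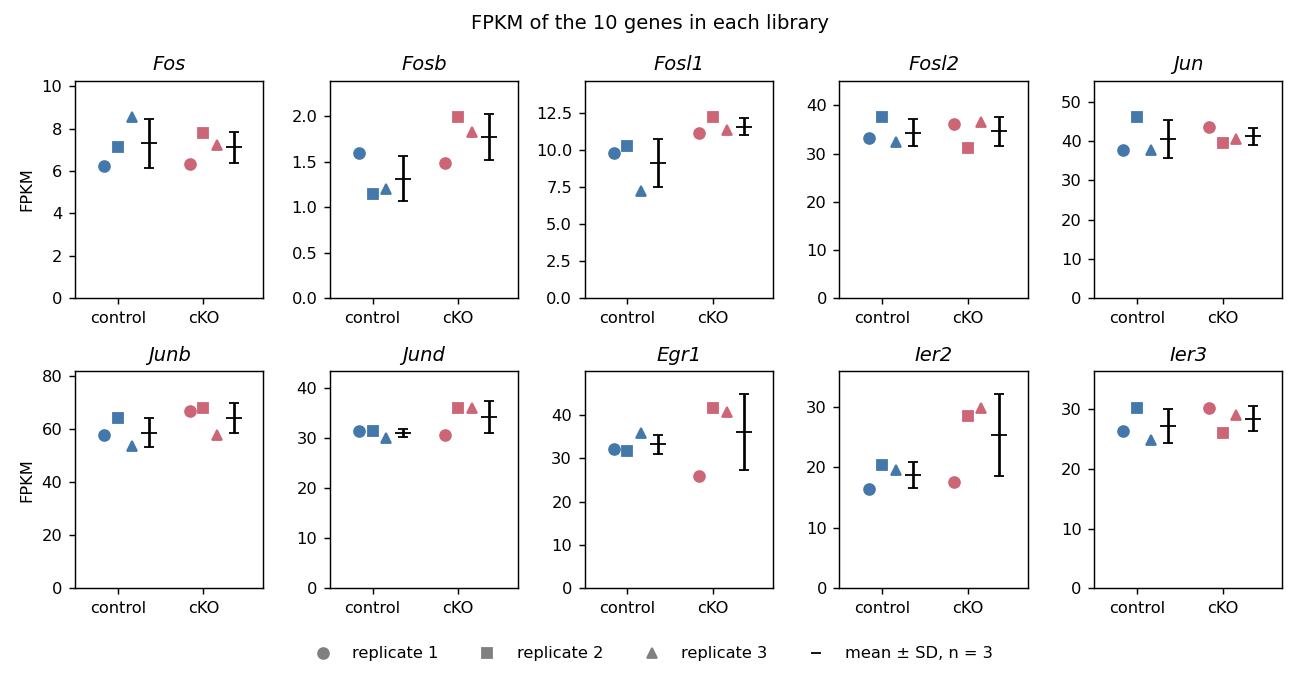
FPKM (y axis, from 0 in each panel) of the 10 genes in the control and cKO libraries; marker shapes give the replicate number and the bars give the mean ± SD of 3 libraries. The groups are apart for Fosl1, while for Egr1 and Ier2 cKO replicates 2 and 3 sit above the controls. The library labelled cKO replicate 1 sits below the controls for Egr1 and within their range for Ier2.

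Fosl1, which encodes FRA1, was 9.77, 10.27 and 7.23 FPKM in control replicates 1, 2 and 3 and 11.13, 12.19 and 11.34 FPKM in the libraries labelled cKO. The groups did not overlap, and control replicate 3, the control library with Y-linked RNA, was the lowest of the 6. The fitted log2 fold change was 0.33 (standard error 0.12, 95% interval 0.03 to 0.62), with an adjusted p of 0.347 from limma, so the difference did not pass the test. Without control replicate 3 it was 0.19, and with Y-linked RNA as a covariate it was 0.42. The exons of Fosl1, on chromosome 19 of GRCm38 from 5447547 to 5455946, overlap those of Ccdc85b on the other strand in GENCODE M21. Whether reads were assigned by strand is not given in the sources used here. Fosb, whose protein has a short splice form that lacks the activation domain, was 1.6, 1.14 and 1.2 FPKM in controls and 1.49, 1.99 and 1.83 FPKM in the libraries labelled cKO. Here cKO replicate 1 lay below control replicate 1. Its log2 fold change was 0.26 (standard error 0.10, 95% interval 0.01 to 0.51, adjusted p = 0.366 from limma).

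Epithelial markers were in sum also higher in the libraries labelled cKO. Of 5 markers, 4 were tested, all 4 with positive differences, where 44.3% of all tested genes had positive ones. The groups were apart for 2 (Krt18 and Epcam) and overlapped for Krt8 and Krt19. Over all tested genes they were apart for 18.3%, and for 6.51% with the higher values in cKO. Epcam reached 1 FPKM only in the libraries labelled cKO, so passing the filter already set its groups apart. None of the 4 passed the test (lowest adjusted p = 0.312 from limma). The summed level of all 5 markers was 5.81 to 16.3 FPKM in controls and 24.2 to 46.2 FPKM in the libraries labelled cKO. Epcam was at 0 to 0.47 FPKM in controls and 1.21 to 1.58 FPKM in cKO. The part of these markers in the Fosl1 values was not tested. In bulk RNA, more cells of a type and more RNA per cell cannot be told apart.

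Fos and Fosl2 showed no difference beyond the spread of the replicates. Fos, the prototype of the immediate early genes, was 6.22, 7.13 and 8.54 FPKM in control replicates and 6.33, 7.78 and 7.22 FPKM in the libraries labelled cKO. Both the lowest and the highest values were controls. The log2 fold change was -0.03 with a 95% interval from -0.31 to 0.25 (adjusted p = 0.941 from limma). Fosl2, which encodes FRA2, was 33.19, 37.57 and 32.35 FPKM in controls and 36.2, 31.2 and 36.48 FPKM in the libraries labelled cKO. Its log2 fold change was 0.01 (95% interval -0.21 to 0.23, adjusted p = 0.974 from limma), and the ranges of the groups overlapped almost fully.

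The JUN family differed little between the groups. Jun, the main partner of FOS proteins, was 37.77, 46.1 and 37.65 FPKM in controls and 43.57, 39.52 and 40.53 FPKM in the libraries labelled cKO, all 3 of which lay within the control range. Its log2 fold change was 0.03 (95% interval -0.20 to 0.25, adjusted p = 0.913 from limma). Junb was 57.96, 64.39 and 53.69 FPKM in controls and 66.92, 68.12 and 57.74 FPKM in the libraries labelled cKO, with a log2 fold change of 0.13 (95% interval -0.10 to 0.36, adjusted p = 0.581 from limma). The library labelled cKO replicate 3 was below control replicates 1 and 2. Jund, the JUN protein with the most constant expression in many cells, was 31.43, 31.38 and 30.08 FPKM in controls and 30.55, 36.05 and 35.89 FPKM in the libraries labelled cKO. Its log2 fold change was 0.13 (95% interval -0.06 to 0.32, adjusted p = 0.497 from limma), and cKO replicate 1 lay among the controls. All 3 JUN genes were lowest in control replicate 3, as were Fosl1 and Ier3, that is 5 of 10 genes against 9.09% of all tested genes. Jun, Junb and Jund have 1 exon each in the principal GENCODE transcript, and each overlaps a gene on the opposite strand (Junos, Prdx2 and Gm11175).

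**Figure D3:**
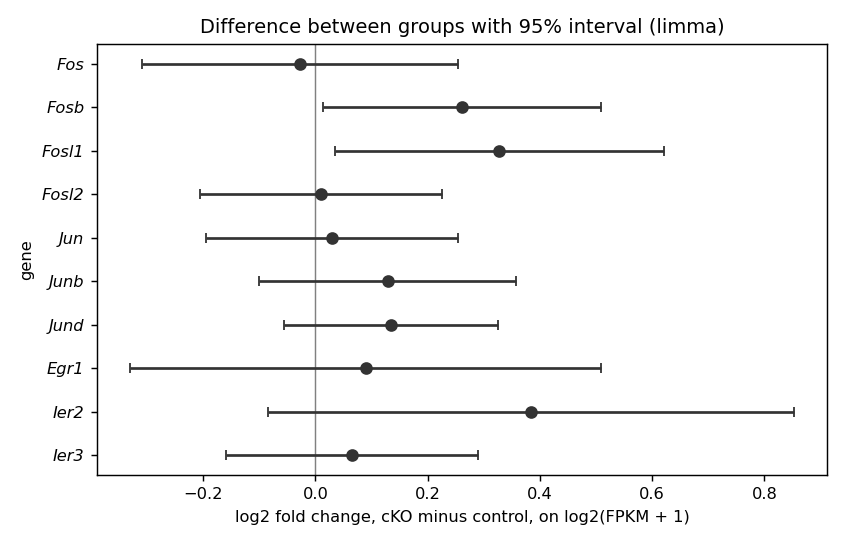
Log2 fold change of cKO against control on log2(FPKM + 1) (x axis) for each of the 10 genes (y axis), with the 95% interval from limma. The intervals of Fosb and Fosl1 lie above 0 before adjustment, the other 8 include 0, and the interval of Ier2 is the widest (-0.08 to 0.85).

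Egr1 and Ier2 had the largest spread between replicates. Egr1, a zinc finger factor induced by serum and mechanical load, was 32.03, 31.71 and 35.73 FPKM in controls and 25.96, 41.65 and 40.6 FPKM in the libraries labelled cKO. The library labelled cKO replicate 1 was thus the lowest of the 6 and cKO replicates 2 and 3 were the highest. Between the groups the log2 fold change was 0.09 (95% interval -0.33 to 0.51, adjusted p = 0.841 from limma). Ier2, a short nuclear protein of the serum response, was 16.35, 20.3 and 19.58 FPKM in controls and 17.63, 28.47 and 29.83 FPKM in the libraries labelled cKO. Here cKO replicate 1 lay within the control range. Ier2 is a gene of 1 exon on chromosome 8 of GRCm38 from 84661331 to 84662852. The fitted log2 fold change was 0.38 (95% interval -0.08 to 0.85, adjusted p = 0.444 from limma). The SD within groups on the log2(FPKM + 1) scale was above that of 92.2% of tested genes for Egr1 and of 94.0% for Ier2. Ier3, which encodes a regulator of apoptosis and stress signalling, varied less. It was 26.37, 30.29 and 24.83 FPKM in controls and 30.14, 26.04 and 29.09 FPKM in the libraries labelled cKO, and its log2 fold change was 0.07 (95% interval -0.16 to 0.29, adjusted p = 0.780 from limma).

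The division among the libraries labelled cKO was examined further, after these values had been seen. For 4 of the 10 genes (Fosb, Jund, Egr1 and Ier2), cKO replicates 2 and 3 were above all controls and cKO replicate 1 was not, a placing held by 11.2% of all tested genes. Among 23 tested genes of a list of other immediate early genes, 9 had the same placing. They include Klf4, a zinc finger factor, with 8.86 FPKM in cKO replicate 1, 18.82 and 20.56 FPKM in cKO replicates 2 and 3 and 9.11 to 11.97 FPKM in controls. Nr4a1, an orphan nuclear receptor, had 16.13, 24.34 and 23.58 FPKM in the libraries labelled cKO and 17.17 to 19.42 FPKM in controls. Others of the 9 had the placing by small margins. Rhob had 86.55 and 88.52 FPKM in cKO replicates 2 and 3 against at most 85.0 FPKM in controls. Ccn2 had 149.62 FPKM in cKO replicate 3 against 147.74 FPKM in control replicate 1. Among 10 tested AP-1 partners, 3 had it (Atf3, Jdp2 and Maff). Atf3, a stress-induced partner of JUN proteins, was 1.75 FPKM in cKO replicate 1 against 6.32 and 6.55 FPKM in cKO replicates 2 and 3 and 1.5 to 2 FPKM in controls. Among 16 genes for SRF and the kinases upstream of the serum response, 1 had it (Map2k1), and of 8 heat shock genes 0 did.

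Without cKO replicate 1, Ier2 had a log2 fold change of 0.62 and an adjusted p of 0.0436 from limma, the single call among the 10 genes under any of the settings tried. Its adjusted p was 0.332 to 0.549 under the alternatives that kept all 6 libraries and 0.0436 to 0.775 with 1 library left out. In that fit 2.8% of the tested genes (324) were called. Egr1 had 0.30 (adjusted p = 0.109) and Jund 0.21 (adjusted p = 0.144) in the same fit. Macrophage markers were also lower in cKO replicate 1 than in cKO replicates 2 and 3 for 4 of 4 tested markers of 8 listed, a placing held by 37.2% of all tested genes. The summed level of all 8 listed was 46.0 FPKM in cKO replicate 1 and 68.1 and 74.7 FPKM in cKO replicates 2 and 3. It was 33.8 to 91.2 FPKM in controls, so the highest value was in control replicate 3. All 4 tested muscle markers had the placing too, by small margins for Acta1 (29.17 against 29.49 FPKM in cKO replicate 3) and Myog (2.71 against 2.76 FPKM in cKO replicate 2). The 6 listed muscle markers summed to 40.9 FPKM in cKO replicate 1 and 47.6 and 42.2 FPKM in cKO replicates 2 and 3. In controls the sum was 29.8 to 55.8 FPKM. Cartilage markers had this placing for 4 of 5 tested, and 2 of the 5 (Acan and Sox9) were above all controls in cKO replicates 2 and 3 alone. Their summed level was 153.7 FPKM in cKO replicate 1, 178.9 and 173.8 FPKM in cKO replicates 2 and 3, and 99.2 to 168.4 FPKM in controls. Other marker lists differed: cKO replicate 1 was the lowest of the libraries labelled cKO for 0 of 4 tested epithelial and 1 of 8 osteoblast lineage markers. It was so for 2 of 4 adipocyte markers and the 1 tested endothelial marker. None of the listed macrophage markers was at 0 in any library. The part of these cell types in the Egr1 and Ier2 values was not tested.

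**Figure D4:**
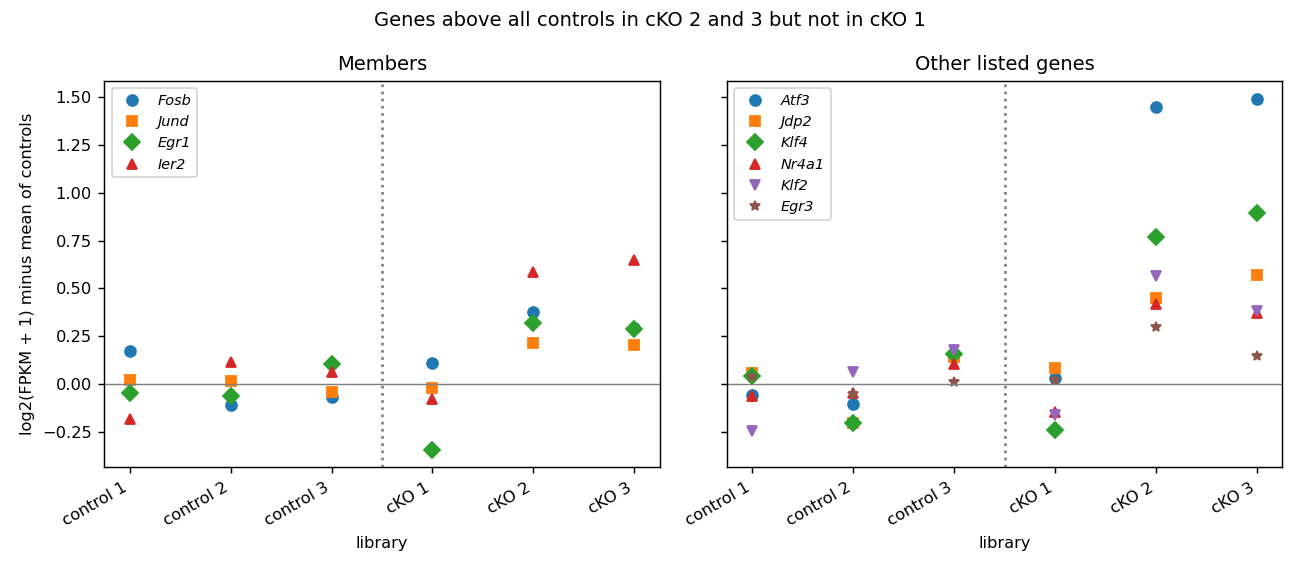
Log2(FPKM + 1) minus the mean of the controls (y axis) in each library (x axis) for the 4 genes named above (left) and 6 other listed genes with the same placing, chosen after their values were seen (right). In the library labelled cKO replicate 1 the points lie near or below 0, and in cKO replicates 2 and 3 all lie above 0, most of all for Atf3.

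The rest of the pathway gave 0 genes with an adjusted p under 0.05. Of 12 other AP-1 partners, 10 were tested and 7 had positive differences, with a median of 0.14. At an unadjusted p under 0.05 there were 5 with higher and 1 with lower values in the libraries labelled cKO, against 13.1% of all tested genes in either direction. Mafk, a small MAF protein, had a log2 fold change of 0.27 (adjusted p = 0.317 from limma) and Maf had -0.21 (adjusted p = 0.343). Of 25 other immediate early genes, 23 were tested, 16 with positive differences and a median of 0.11 (0.04 without cKO replicate 2), and 2 of the 23 had an unadjusted p under 0.05, against the same 13.1%. These were Plk2, a kinase induced by serum, at 29.1 ± 2.91 and 42.6 ± 7.01 FPKM (SD, n = 3; log2 fold change 0.53, adjusted p = 0.312 from limma), and Egr2, at 5.84 ± 0.199 and 7.25 ± 0.813 FPKM (log2 fold change 0.27, adjusted p = 0.312). The third by p was Btg2, an antiproliferative gene, at -0.19 (adjusted p = 0.389).

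The 16 genes for SRF, its cofactors and the MAP kinases were all tested, with 11 negative differences and a median of -0.05. At an unadjusted p under 0.05 there were 2 of 16 (Mapk14 and Mrtfa), against 13.1% of all tested genes. The groups were apart for the same 2 of 16, against 18.3% of all tested genes, with lower values in the libraries labelled cKO. The smallest p belonged to Mapk14, the p38α kinase, at -0.21 (adjusted p = 0.312 from limma), Mrtfa, an actin-regulated cofactor of SRF, at -0.27 (adjusted p = 0.338) and Mrtfb at -0.11 (adjusted p = 0.487). Srf itself had -0.05. Of 16 genes known to carry AP-1 sites, 9 had positive differences and the median was 0.10, or -0.04 without control replicate 3. At an unadjusted p under 0.05 there were 4 with higher and 2 with lower values among the 16, against 13.1% of all tested genes. Mmp9, a gelatinase, had 0.61, the cytokine gene Lif had 0.28, and Bglap, which encodes the bone protein osteocalcin, had -1.15 (adjusted p = 0.312 from limma for all 3). All 3 were low, with control means of 0.81, 1.43 and 5.43 FPKM and cKO means of 1.75, 1.96 and 1.71 FPKM. Mmp9 was under 1 FPKM in control replicates 1 and 2. Mmp13, a collagenase often used as an AP-1 readout in osteoblasts, was 387.49, 573.67 and 389.06 FPKM in controls and 660.99, 513.96 and 348.34 FPKM in the libraries labelled cKO, with overlap of the groups.

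Heat shock genes, which respond to handling stress along with immediate early genes, had 8 negative differences among 8 tested, where 44.3% of all tested genes had positive ones, and a median of -0.21. The smallest p were those of Hsph1 at -0.38 (adjusted p = 0.312 from limma), Bag3 at -0.22 (adjusted p = 0.361) and Hspa1a at -0.41 (adjusted p = 0.380). The values of the groups were apart for 3 of the 8, against 18.3% of all tested genes.

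Genes whose levels followed 3 of the members most closely were sought among 978 tested genes with an SD of at least 0.3 over the 6 libraries on the log2(FPKM + 1) scale. For Egr1 these were Cystm1, Mia and Ldb2, with Pearson r from 0.950 to 0.995. For Fos they were Ccl27a, Cd36 and Alyref (r from 0.879 to 0.921), and for Junb they included Aldh1a2 and Nrn1 (r of 0.958 and 0.949). These values describe the best of many genes over 6 libraries and were not tested. The 3 members themselves varied less than the cut of 0.3, with an SD of 0.153 for Fos, 0.2475 for Egr1 and 0.135 for Junb.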

How the data were processed

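RNA from cultured calvarial preosteoblasts was sequenced as 150 bp paired-end reads in 3 control libraries and 3 libraries labelled cKO. The authors mapped reads with HISAT2, and the submitters' processing notes name GRCm38 and DESeq. The authors deposited FPKM values per gene symbol, rounded to 2 decimals. The program behind them, the annotation and the handling of strand are not given in the sources used here. FPKM is not a read count, so no count test was run and no depth or counting interval can be given.

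Log2(FPKM + 1) was fitted with limma 3.58.1 (R 4.3.3; lmFit, eBayes, two-sided, Benjamini-Hochberg adjustment over all tested genes) on rows with at least 1 FPKM in at least 3 libraries. The code was tested on simulated data. Nothing says whether libraries came from separate animals, so p-values measure only the spread between these libraries. Alternatives were the filter, the pseudocount, a variance trend, 2 scalings, a replicate block, a Y-linked covariate and leaving out each library. Members and gene lists were chosen with earlier results of these data known. Named genes were the 10 members, Nell2, the 3 genes with the smallest p of each pathway list, and the 3 genes most like Fos, Egr1 and Junb. For 2 of the genes so chosen, values are not reported here. Others were chosen after their values were seen.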

Additional observations from a re-analysis of the deposited data

How the results depend on the processing

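All 8 alternatives that kept the 6 libraries gave 0 genes with an adjusted p under 0.05 in limma, and 0 of the 10 members. With 1 library left out, the count over all genes was 0 to 324 and that of members 0 to 1, the highest in each case without cKO replicate 1; without control replicate 3 it was 2 genes. The cause was not tested. At an unadjusted p under 0.05, the members numbered 1 with a variance trend or quantile normalization and 0 to 4 with 1 library left out. With the Y-linked covariate, Fosl2 had a log2 fold change of -0.0052. Leaving out 1 library at a time gave Fosl2 a log2 fold change from -0.031 to 0.081, Fos from -0.12 to 0.078, Jun from -0.019 to 0.12 and Egr1 from -0.026 to 0.30. Those of Fosb (0.20 to 0.35), Fosl1 (0.19 to 0.41), Ier2 (0.25 to 0.62), Ier3 (0.01 to 0.14), Junb (0.07 to 0.20) and Jund (0.09 to 0.21) stayed positive.

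The replicate numbers in the labels are shared by the groups, but nothing ties same-numbered libraries to one animal or day. Deviations from the group means correlated at 0.03, -0.17 and 0.21 for same-numbered pairs across tested genes, so the numbers were not taken as pairs. The replicate block gave 0 genes and 0 members with an adjusted p under 0.05. FPKM hides depth, so the counting error of low genes such as Fosb is unknown.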
